A study of Homo sapiens with 8 samples.

Results

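Genes that encode 10 secreted vascular growth factors were followed across all libraries: APLN, ANGPT2, ANGPT1, KITLG, VEGFB, VEGFC, PGF, FGF2, ANGPTL4 and PDGFA. They were taken by name from a table of 54174 gene symbols, and all 10 of the 10 had a value in every library. The samples were cultures of 143B, an established human osteosarcoma cell line, transiently transfected with plasmid DNA and harvested 48 h later. The control group (4 libraries) received a vector plasmid and the knockout group (4 libraries) a plasmid labelled for knockout of NELL1, the gene of a secreted glycoprotein known from bone growth. All cultures shared the line, the transfection and the time point. The labels name no selection of transfected cells and no check of the edit. They do not say whether the libraries of a group came from separate cultures, and p-values then measure only the spread between these samples, which may be technical. The set was chosen by the knockout-against-control differences of these same libraries: APLN, ANGPT2 and KITLG were among the largest rises seen earlier, and the other 7 were listed with those results known. The knockout-against-control values of all 10 genes are therefore a description: no p-value is given for them, and calls of these genes, in any fit, are counted only to describe the choice and support nothing.

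Vascular growth factors are released by tumour and stromal cells and act on receptors of nearby endothelial cells, pericytes and blood cells. The VEGF family binds the receptors FLT1, KDR and FLT4, the angiopoietins bind TEK, apelin binds the G-protein-coupled receptor APLNR, and stem cell factor, the product of KITLG, binds KIT. In osteosarcoma, as in other solid tumours, these ligands are studied for vessel supply and spread, and their genes are known to respond to low oxygen, growth signals and cell state.

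The deposited values are on a log2 scale and had been forced to one common distribution, with a median of 1.77 in every library. A difference of 1 is thus a 2-fold difference relative to the rest of the transcriptome. The quantity before the logarithm is not given in the sources used here, so levels of different genes are not compared. Depth per library is unknown, and between 14911 and 15171 genes had a value. NELL1 itself ranked between percentiles 2.3 and 9.52 of a library (-6.97 to -4.53 in the controls, -6.96 to -4.82 in 3 knockout libraries, blank in knockout library 3), so it does not check the labels. Knockout libraries 1 and 2 lay close together (SD of the difference across genes 0.12), as did knockout libraries 3 and 4 (0.13), while the pairs stood 0.46 to 0.5 apart. Control libraries differed from one another by 0.10 to 0.29. Differences are therefore also given within replicates 1 and 2 and within replicates 3 and 4, and counts also with each close pair averaged to 1 library.

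A fit across genes with limma used the 9016 genes with a value in every library and a mean of at least 1. It held 9 of the 10 ligand genes; ANGPT1 was too low. KITLG passed only through its knockout values, since its control mean was below 1. A gene was called at a Benjamini-Hochberg adjusted p-value under 0.05, which 13.1% of all tested genes reached, 7.02% as higher and 6.1% as lower in the knockout libraries. Among the 9 ligand genes 4 were called: APLN, ANGPT2 and KITLG as higher and VEGFC as lower. The same 4 were called in a fit with the replicate number as a block, which called 10.2% of all tested genes. In these 4 genes alone among the 9 the ranges of the groups did not overlap, as in 22.9% of all tested genes. The median difference of the 9 was 0.22, against 0.01 over all tested genes. With each close knockout pair averaged, ANGPT2 was no longer called, while APLN, KITLG and VEGFC were (1.2% of all tested genes). Since the genes were picked on these differences, nothing is read from these counts.

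**Figure D1:**
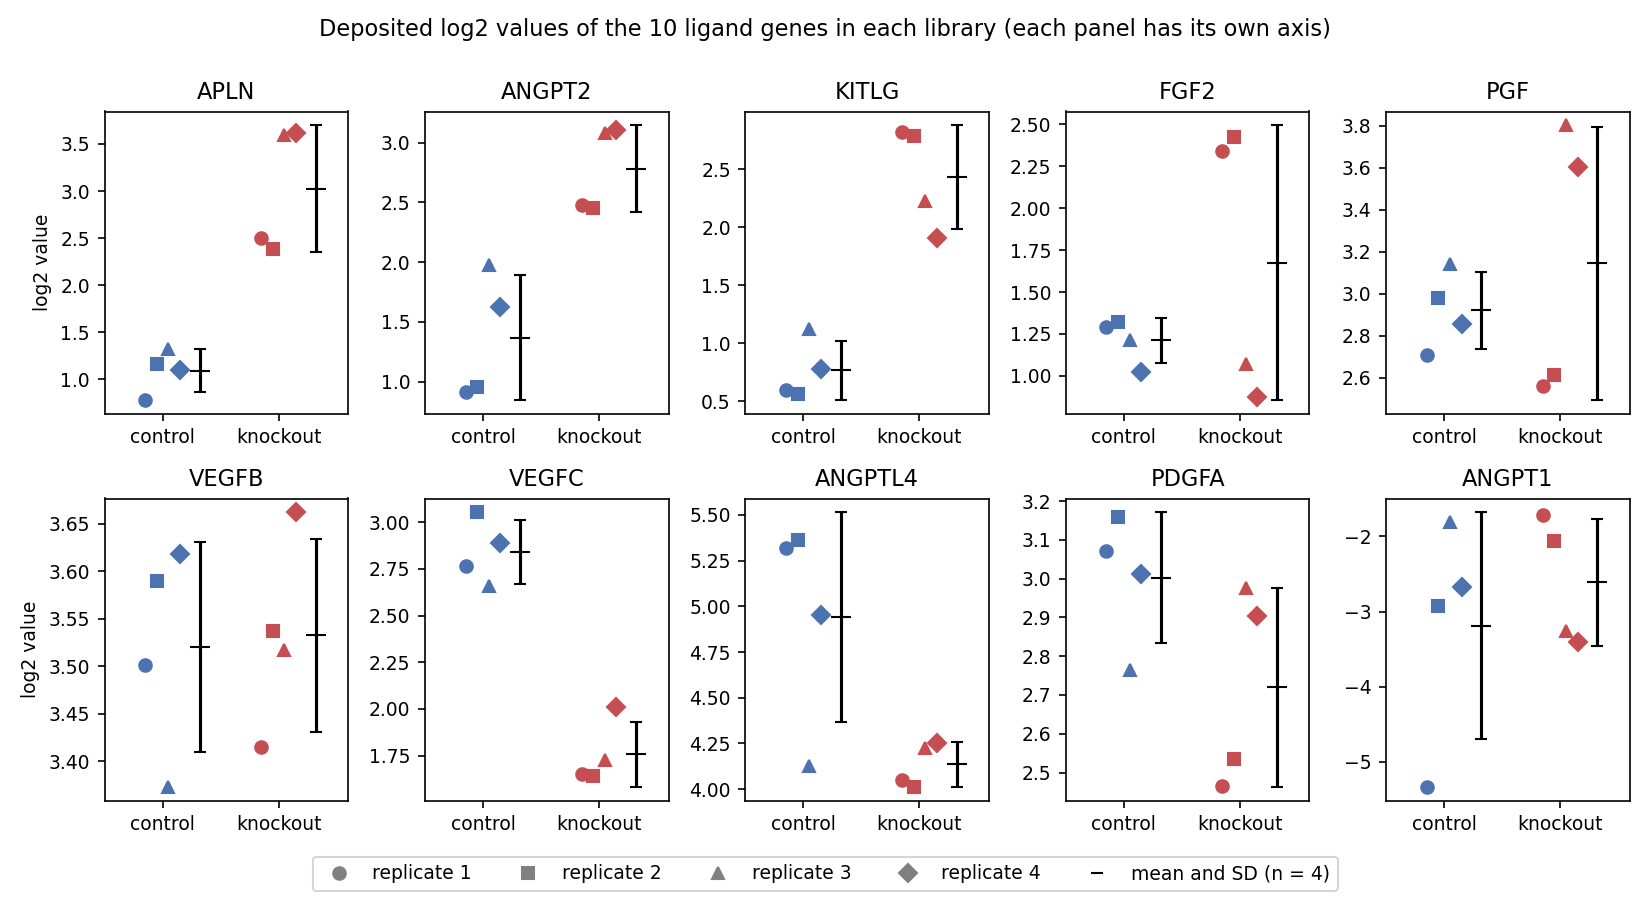
Deposited log2 value (vertical axis, own scale in each panel) of the 10 ligand genes in each library, controls in blue and knockouts in red, with the replicate number as the marker shape and the mean and SD (n = 4) beside each group. Groups are apart for APLN, ANGPT2, KITLG and VEGFC. The knockout libraries form 2 separate pairs for APLN, ANGPT2, KITLG, FGF2, PGF, PDGFA, ANGPTL4 and ANGPT1, and the pairs of PGF lie on either side of the controls.

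Promoter windows of the RefSeq genes (GRCh38.p14, a patch release of the build named for these libraries) were found for 8 of the 10 genes, without ANGPT2 and ANGPT1. They are printed for APLN and KITLG, which were higher together, for VEGFC, which was lower, and for ANGPTL4, whose control libraries were ordered like the mean of a list of hypoxia genes. Each is the 250 bases before the annotated start, read 5′ to 3′ on the gene's strand, and capitals mark matches on either strand. The motifs searched were the GC box GGGCGG, the hypoxia response core ACGTG, the TATA box TATAAA, the AP-1 site TGACTCA and the NF-kappaB consensus. No match overlapped a match of another motif in these 4 windows. APLN lies at chrX:129645259-129654956 (minus strand; window chrX:129654957-129655206), KITLG at chr12:88492793-88580471 (minus strand; window chr12:88580472-88580721), VEGFC at chr4:176683538-176792922 (minus strand; window chr4:176792923-176793172) and ANGPTL4 at chr19:8364155-8374370 (plus strand; window chr19:8363905-8364154). Of the genes whose windows are not shown, VEGFB lies at chr11:64234584-64239264, PGF at chr14:74941830-74955764, FGF2 at chr4:122826682-122898236 and PDGFA at chr7:497258-520700.
APLN: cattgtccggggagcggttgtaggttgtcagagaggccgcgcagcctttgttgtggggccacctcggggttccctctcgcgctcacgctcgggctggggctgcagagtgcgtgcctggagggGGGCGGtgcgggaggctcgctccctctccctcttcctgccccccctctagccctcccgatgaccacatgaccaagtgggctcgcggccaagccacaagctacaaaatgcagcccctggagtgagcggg
KITLG: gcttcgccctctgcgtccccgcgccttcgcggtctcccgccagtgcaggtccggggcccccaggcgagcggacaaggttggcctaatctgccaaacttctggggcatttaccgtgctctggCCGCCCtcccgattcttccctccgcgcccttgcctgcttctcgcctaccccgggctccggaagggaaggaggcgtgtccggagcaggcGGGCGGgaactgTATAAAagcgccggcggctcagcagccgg
VEGFC: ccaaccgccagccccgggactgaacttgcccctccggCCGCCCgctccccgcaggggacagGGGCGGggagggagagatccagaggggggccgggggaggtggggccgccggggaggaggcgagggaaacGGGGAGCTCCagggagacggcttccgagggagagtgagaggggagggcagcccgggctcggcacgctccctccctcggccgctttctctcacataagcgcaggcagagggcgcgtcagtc
ANGPTL4: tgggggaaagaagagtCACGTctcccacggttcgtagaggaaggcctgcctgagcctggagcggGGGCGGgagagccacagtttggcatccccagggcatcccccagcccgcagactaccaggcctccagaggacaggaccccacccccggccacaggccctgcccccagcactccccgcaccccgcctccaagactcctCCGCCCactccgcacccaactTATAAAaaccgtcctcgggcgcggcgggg
APLN had 1 GC box and no other match, and KITLG had 2 GC boxes and a TATA box. VEGFC had 2 GC boxes and 1 NF-kappaB match, and ANGPTL4 had 2 GC boxes, a TATA box and the only hypoxia response core. Over the 12 windows of the 8 genes, the GC box was found in 12, the TATA box in 2, the hypoxia response core in 1, the NF-kappaB consensus in 1 and the AP-1 site in 0. Over 35116 windows of the same length the shares were 42.6%, 10.7%, 18.5%, 9.96% and 4.2%. The windows shown were 67.6% to 74% G or C, against a median of 58% over all windows. A match is a stretch of letters, not a measured site.

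APLN encodes the apelin precursor, which is cut to short peptides that act on endothelial APLNR. Log2 values were 0.78, 1.16, 1.32 and 1.11 in control libraries 1 to 4, against 2.50, 2.39, 3.60 and 3.62 in knockout libraries 1 to 4. Every knockout library was above every control, and knockout libraries 3 and 4 were the highest. Group means were 1.09 ± 0.23 for control and 3.03 ± 0.67 for knockout libraries (± SD, n = 4), with a difference of 1.93 ± 0.30 (SE), or 3.82-fold. It was 2.77-fold within replicates 1 and 2 and 5.26-fold within replicates 3 and 4. In the ranking of each library the gene moved from a mean percentile of 41.4 in the controls to 68.8 in the knockouts. Of the 9016 differences it ranked 3 from the highest, KITLG 4 and ANGPT2 5. These genes were chosen for such rises, so the ranks only describe the choice. Genes below the filter on the mean were not ranked, among them CCBE1 (2.39), FGF1 (2.07) and ADAMTS1 (2.03).

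KITLG encodes stem cell factor, made as a membrane-bound protein that can be shed. Log2 values were 0.60, 0.57, 1.12 and 0.78 in control libraries 1 to 4, against 2.82, 2.79, 2.22 and 1.90 in knockout libraries 1 to 4. The groups did not overlap, and here knockout libraries 1 and 2 were the higher pair, the reverse of APLN. Group means were 0.77 ± 0.25 for control and 2.43 ± 0.45 for knockout libraries (± SD, n = 4), with a difference of 1.67 ± 0.22 (SE), or 3.18-fold. Within replicates 1 and 2 it was 4.67-fold and within replicates 3 and 4 it was 2.16-fold.

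The angiopoietins are paired ligands of TEK: ANGPT1 activates the receptor and steadies vessels, and ANGPT2 acts as a partial or opposing ligand that loosens them. ANGPT2 was 0.91, 0.96, 1.98 and 1.63 in control libraries 1 to 4 and 2.48, 2.45, 3.08 and 3.11 in knockout libraries 1 to 4 (log2 values). The lowest knockout value exceeded the highest control value by less than the controls differed among themselves, since control libraries 3 and 4 were well above control libraries 1 and 2. The difference was 1.41 ± 0.27 (SE), or 2.66-fold, and it was of like size in both replicate sets (2.89-fold in replicates 1 and 2, 2.45-fold in replicates 3 and 4). ANGPT1 was close to the bottom of the measured range, between percentiles 6.89 and 20.3. Log2 values were -5.34, -2.93, -1.81 and -2.67 in the controls, against -1.71, -2.06, -3.25 and -3.40 in the knockouts. The groups overlapped, and the spread of ANGPT1 among the controls (SD 1.51) was larger than its difference between groups (0.58).

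The VEGF family members differed in behaviour. VEGFC, the ligand of FLT4 that drives lymphatic vessel growth, was 2.77, 3.05, 2.66 and 2.89 in control libraries 1 to 4 and 1.65, 1.64, 1.73 and 2.01 in knockout libraries 1 to 4. All knockout values were below all control values, with a small spread in both groups. Group means were 2.84 ± 0.17 for control and 1.76 ± 0.17 for knockout libraries (± SD, n = 4), with a difference of -1.08 ± 0.11 (SE). The knockout level was 2.4-fold lower within replicates 1 and 2 and 1.87-fold lower within replicates 3 and 4. VEGFB, a ligand of FLT1, lay between 3.37 and 3.62 in the controls and between 3.41 and 3.66 in the knockouts, with a difference of 0.01 ± 0.08 (SE), the smallest of the 9. PGF, placental growth factor and also a ligand of FLT1, was 2.71, 2.98, 3.14 and 2.86 in control libraries 1 to 4 and 2.56, 2.61, 3.80 and 3.60 in knockout libraries 1 to 4. Its knockout libraries thus lay on both sides of the controls, 1 and 2 below and 3 and 4 above, and the mean difference of 0.22 ± 0.29 (SE) stood for neither pair.

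FGF2 encodes basic fibroblast growth factor, a heparin-binding ligand of FGFR1 that leaves the cell without a signal peptide. Log2 values were 1.29, 1.32, 1.22 and 1.03 in control libraries 1 to 4, against 2.34, 2.42, 1.07 and 0.87 in knockout libraries 1 to 4. Knockout libraries 1 and 2 were above every control, while libraries 3 and 4 were at the lower end of the control range or below it. The difference was 1.08 within replicates 1 and 2 and -0.15 within replicates 3 and 4. In GENCODE 29, exons of FGF2 overlap exons of NUDT6 on the opposite strand, and the sources used here do not say whether strand was used in counting. NUDT6 was 1.36 and 1.10 in knockout libraries 1 and 2 and 0.32 and 0.32 in knockout libraries 3 and 4, a split in the same direction, against 0.63 to 1.36 in the controls. Its part in the values of FGF2 was not tested. ANGPT2 likewise overlaps exons of MCPH1, which lay between 0.04 and 0.22 in the controls and between -0.33 and 0.37 in the knockouts.

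PDGFA encodes the A chain of platelet-derived growth factor, the ligand of PDGFRA on mesenchymal cells. Log2 values were 3.07, 3.16, 2.76 and 3.01 in control libraries 1 to 4, against 2.47, 2.53, 2.97 and 2.90 in knockout libraries 1 to 4. Knockout libraries 1 and 2 were below every control and libraries 3 and 4 were within the control range. The difference was -0.28 ± 0.14 (SE) over all libraries, -0.62 within replicates 1 and 2 and 0.05 within replicates 3 and 4.

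ANGPTL4 encodes a secreted inhibitor of lipoprotein lipase that is known to be induced by fasting signals and low oxygen. Log2 values were 5.32, 5.36, 4.12 and 4.95 in control libraries 1 to 4, against 4.05, 4.01, 4.23 and 4.25 in knockout libraries 1 to 4. Control library 3 lay inside the knockout range, and the other 3 controls were above it. The difference was -0.80 ± 0.25 (SE) and was not called. Without control library 3 it was -1.08 and was called. That fit leaves out the control inside the knockout range of a gene chosen with these values known, so nothing is read from the call. The mean of the 16 tested genes of a list of hypoxia factors and responsive genes also set control library 3 apart: 4.44, 4.45, 4.14 and 4.39 in control libraries 1 to 4 and 4.12 to 4.14 in the knockout libraries. The part of control library 3 in this comparison was not tested further.

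**Figure D2:**
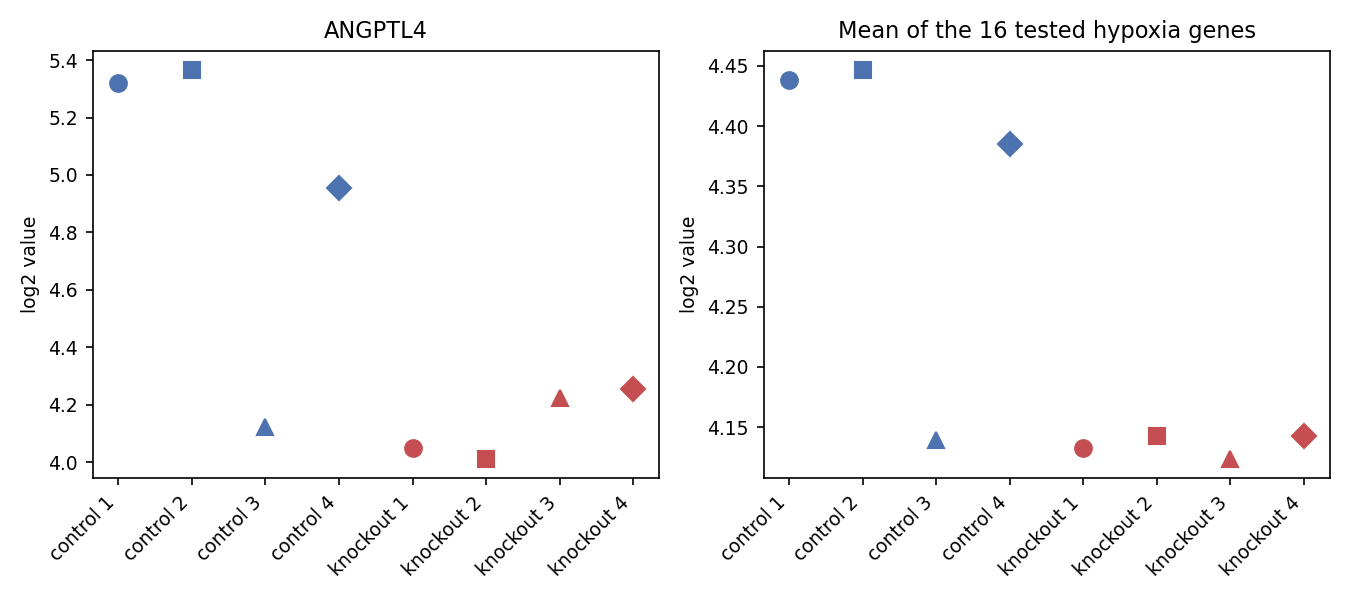
Log2 value of ANGPTL4 (left) and mean log2 value of the 16 tested genes of the hypoxia list (right) in each of the 8 libraries, controls in blue and knockouts in red. Control library 3 (4.12 for ANGPTL4, 4.14 for the list mean) sits at the level of the knockout libraries in both panels.

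Between the replicate sets the share of ligand genes with opposite signs was near that of all tested genes. APLN, ANGPT2 and KITLG were higher and VEGFC and ANGPTL4 lower in both sets. FGF2, PGF, PDGFA and VEGFB had opposite signs in the sets (4 of 9, against 43% of all tested genes). For VEGFB both differences were small (-0.07 and 0.09). The fit within replicates 1 and 2 called 8 of the 9 ligand genes, all except VEGFB, where 59.7% of all tested genes were called. The fit within replicates 3 and 4 called 5 of the 9, APLN, ANGPT2, KITLG and PGF as higher and VEGFC as lower, where 33.1% of all tested genes were called, 15.7% as higher and 17.4% as lower. Each close knockout pair differed by at most 0.32 in any of the 9 genes.

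**Figure D3:**
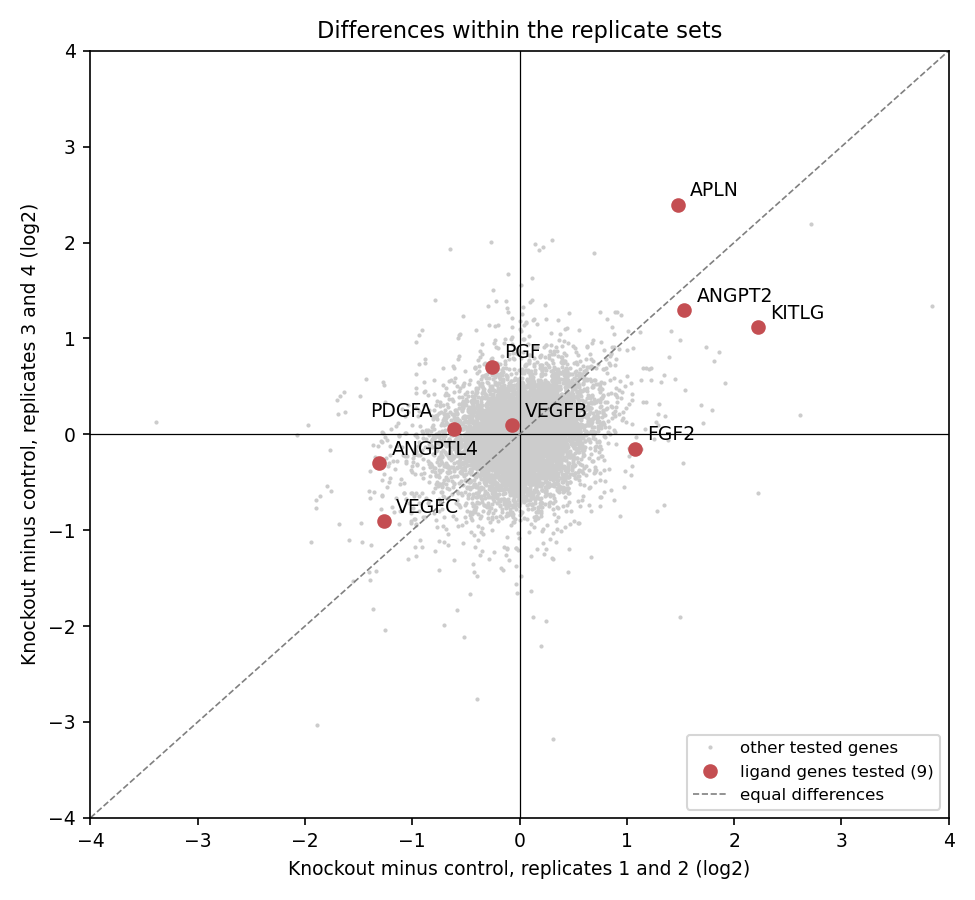
Knockout minus control in log2 units within replicates 1 and 2 (horizontal axis) and within replicates 3 and 4 (vertical axis), for the 9 tested ligand genes in red and the other tested genes in grey, with a dashed line of equal differences. APLN (1.47 and 2.39) lies above the line and KITLG (2.22 and 1.11) below it, and FGF2 (1.08 and -0.15) lies close to the horizontal axis.

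The receptors were examined to see whether the cultures themselves carried transcripts for them. Of 15 receptor genes 14 had a value in every library and APLNR was blank in all 8. TEK was near the bottom of the range (-7.42 to -4.17). KDR was -4.73 to -2.49 in the controls, above these in knockout libraries 1 and 2 (-0.82 and -1.16) and at -4.84 and -4.65 in knockout libraries 3 and 4. KIT lay between -0.03 and 0.40 in the controls and between 0.11 and 0.78 in the knockouts, and FLT4 between 0.50 and 0.65 and between 0.53 and 1.07. Of the 7 receptors with a mean of at least 1, 2 fell and none rose (28.6% called, against 13.1% of all tested genes). PDGFRA fell from 4.14 ± 0.18 to 3.49 ± 0.35 (SD, n = 4 each), by 0.65 on the log2 scale (limma adjusted p = 0.044), and TIE1, an orphan receptor that forms complexes with TEK, fell from 5.11 ± 0.10 to 4.66 ± 0.06 (limma adjusted p = 0.00762). The call of PDGFRA was lost with the replicate block (limma adjusted p = 0.088), with no filter on the mean (0.0693) and without any 1 of control libraries 1, 2 and 4 or knockout libraries 1 and 2 (0.0734 to 0.124), and with averaged pairs both were lost (0.134 and 0.0764). FLT1, FGFR1, NRP1 and NRP2 were not called. FLT1 was 1.14 and 1.29 in knockout libraries 1 and 2, 2.16 and 2.17 in knockout libraries 3 and 4 and 1.69 to 1.82 in the controls. NRP1 was 4.00 and 4.21 in knockout libraries 1 and 2 and 5.17 and 5.20 in knockout libraries 3 and 4, against 5.00 to 5.16 in the controls. FGFR1 differed by -0.29 ± 0.15 and NRP2 by -0.49 ± 0.29 (SE), with limma adjusted p-values of 0.218 and 0.305.

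Markers of endothelial, blood, pericyte and mesenchymal cells were read beside the ligands. Of 11 endothelial markers, EMCN was blank in all libraries, CDH5 had 6 values and CLDN5 had 1, and PECAM1 (-4.61 to -3.31) and VWF (-6.88 to -5.45) were near the bottom of the range. TIE1 lay between 4.57 and 5.19, EGFL7 between 2.58 and 3.05, and ROBO4, ERG and ESAM between -0.64 and 1.27. The blood markers PTPRC, HBB and CD3E were blank throughout. CD68 lay between 5.54 and 5.90, and LYZ and CD14 had 6 values each. Among the pericyte markers, CSPG4 lay between 2.95 and 3.89, KCNJ8 between 0.48 and 1.21, NOTCH3 between -2.31 and -1.26 and RGS5 between -2.92 and -1.88. ABCC9 had 7 values. Of the mesenchymal markers, VIM was 10.79 to 10.87 in the controls and 10.19 to 10.66 in the knockouts and fell by 0.43 (limma adjusted p = 0.0425), NT5E fell by 0.89 (limma adjusted p = 0.0154) and SPARC rose, whereas COL1A2 had 4 values and THY1 had 3. The groups overlapped for RUNX2, COL1A1, ALPL and SPP1, with differences of 0.04, -0.22, -0.14 and 0.45. EGFL7 rose by 0.27 (limma adjusted p = 0.0422). With the replicate block VIM and EGFL7 were not called (limma adjusted p = 0.0507 and 0.0553), and with averaged pairs none of VIM, NT5E and EGFL7 was (0.132, 0.0752 and 0.181). The samples were cultures of the 143B line, and no other cells were named, so these values are not a measure of other cell types. The part of the marker genes in the ligand values was not tested. In such bulk RNA, fewer cells that express a gene and less RNA per cell cannot be told apart.

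Other secreted factors that promote vessel growth were taken as a list of 28 genes, of which 10 could be tested. CCN2 rose, VEGFA, JAG1 and PDGFC fell, and 6 did not pass the test. Thus 40% were called, against 13.1% of all tested genes, with a median difference of -0.06 over the 10. This list, like the receptor list and those that follow, was chosen with earlier results of these data known. Nothing about a list is therefore read from its share called. CCN2, a matrix-associated connective tissue growth factor, had control values of 4.84 to 5.44 and no knockout value below 5.80, with a difference of 0.81 ± 0.14 (SE; limma adjusted p = 0.00912). VEGFA, the main ligand of KDR, was 5.13, 5.16, 5.09 and 5.14 in the controls, against 4.66, 4.79, 3.91 and 3.99 in the knockouts, a difference of -0.79 ± 0.20 (SE; limma adjusted p = 0.0336). JAG1, a Notch ligand, fell by 0.59 and PDGFC, a further PDGFRA ligand, fell by 0.49 (limma adjusted p = 0.00898 and 0.0242). VEGFA and VEGFC were thus both lower in every knockout library, with VEGFA lowest in libraries 3 and 4 and VEGFC lowest in libraries 1 and 2. With averaged pairs none of the 4 was called (limma adjusted p = 0.0566 to 0.0965). VEGFA also lost its call with no filter on the mean (limma adjusted p = 0.0554) and without any 1 of the 4 control libraries or of knockout libraries 3 and 4 (0.0563 to 0.0961), and PDGFC without any 1 of control libraries 1, 2 and 4 or knockout library 3 (0.0603 to 0.0791).

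**Figure D4:**
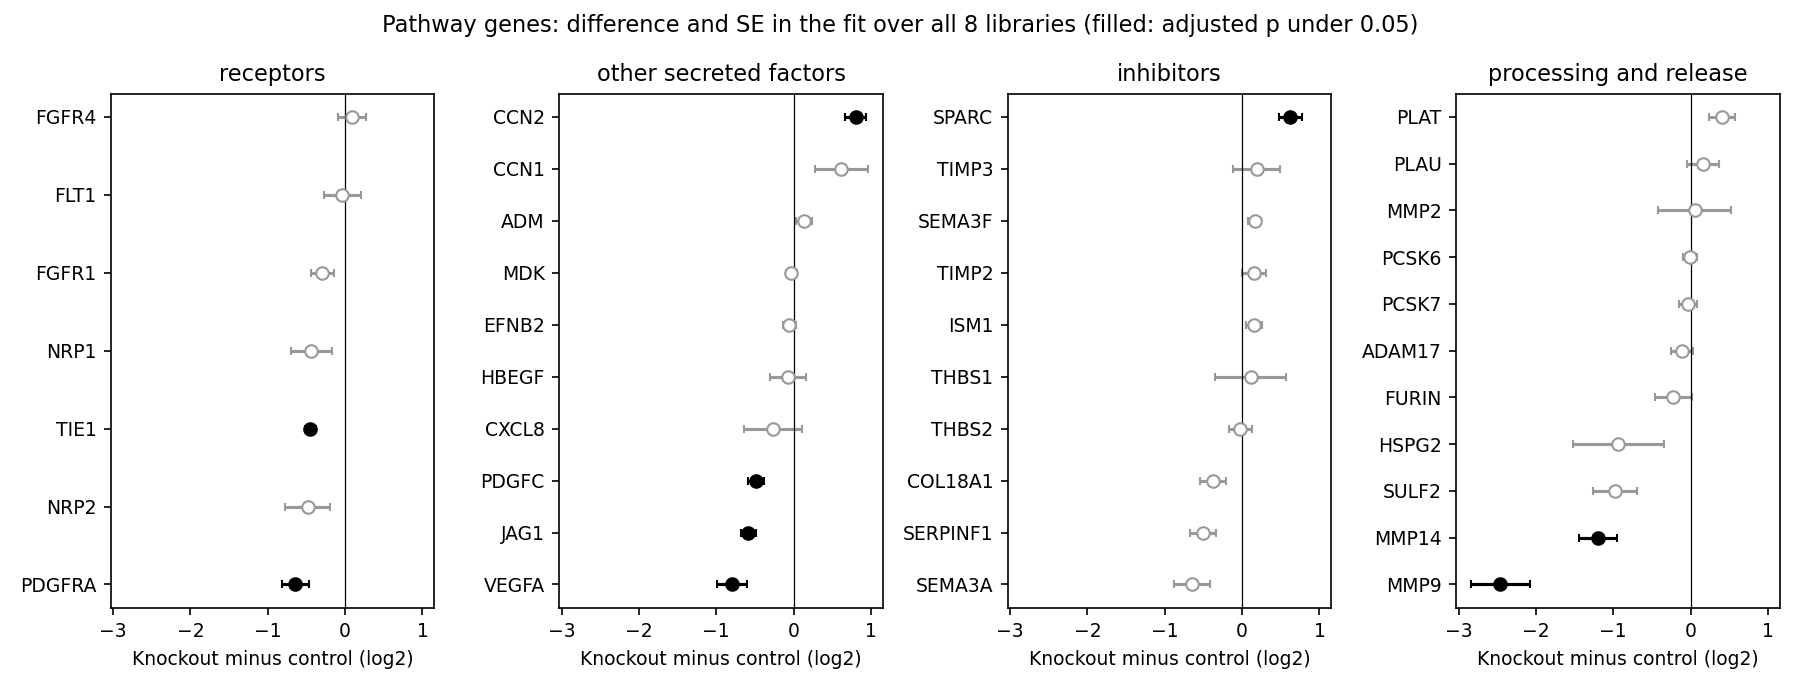
Knockout minus control in log2 units (horizontal axis, bars are the SE of the fit over all 8 libraries) for the tested receptors, other secreted factors, inhibitors and processing genes, with filled points for genes called at an adjusted p under 0.05. MMP9 (-2.46) and MMP14 (-1.20) are the lowest points, and CCN2 (0.81) and SPARC (0.62) the highest called ones.

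Of 15 genes that restrain vessel growth 10 were tested and SPARC, a matrix protein that binds VEGF, was the only one called. Thus 10% of the tested inhibitors were called, against 13.1% of all tested genes. SPARC rose by 0.62 ± 0.15 (SE; limma adjusted p = 0.0294), and the median difference of the 10 was 0.13. With the replicate block 3 were called, SPARC and, as lower, COL18A1 and SERPINF1, which are named because of that result. That fit called 10.2% of all tested genes. Leaving out any 1 library except control library 3 ended the call of SPARC (limma adjusted p = 0.0508 to 0.0897), as did averaging the pairs (0.155).

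Of 17 genes that cut, release or hold these ligands 11 were tested, and MMP9 and MMP14 fell. Thus 18.2% of them were called, against 13.1% of all tested genes. MMP9, a gelatinase that frees matrix-bound VEGF and sheds stem cell factor, was 4.38, 4.43, 3.85 and 4.26 in the controls, against 2.53, 2.50, 0.98 and 1.06 in the knockouts, a difference of -2.46 ± 0.38 (SE; limma adjusted p = 0.00696). It kept its call with averaged pairs (limma adjusted p = 0.0387). MMP14, a membrane-bound collagenase, fell by 1.20 (limma adjusted p = 0.018), but was not called with averaged pairs (0.0764) or without control library 1 or 4 (0.0504 and 0.0602). With the replicate block, which called 10.2% of all tested genes, SULF2, a heparan sulfate editing enzyme named for that result, was also called as lower. The median difference of the 11 genes was -0.11.

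Of the 20 hypoxia factors and responsive genes 16 were tested and 1 was called (6.25%, against 13.1% of all tested genes). NDRG1, a stress-responsive gene known to be induced by low oxygen, was 6.04, 6.06, 5.25 and 5.84 in the controls, against 5.01, 5.02, 4.22 and 4.27 in the knockouts, a difference of -1.17 ± 0.25 (SE; limma adjusted p = 0.0199). The median difference of the 16 was -0.14. With the replicate block, which called 10.2% of all tested genes, ARNT was called too. The call of NDRG1 was lost with averaged pairs (limma adjusted p = 0.0941) and without any 1 of control libraries 1, 2 and 4 (0.0653 to 0.0703). Without control library 3, 6 of the 16 tested genes of the list were called, all lower. That fit called 1353 of the 9016 tested genes, 740 higher and 613 lower.

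The tested genes closest to each leading ligand were found by the root mean square difference over the 8 libraries, after centring each gene on its own control mean. For ANGPT2 they included INSIG1 (0.17), an inhibitor of sterol synthesis, and E2F8 (0.30), a cell cycle repressor. For KITLG they were SRGN (0.23), the proteoglycan serglycin, MCAM (0.29), an adhesion molecule, and PLK2 (0.34), a stress-responsive kinase. APLN had no neighbour as close: ANGPT2 and EFEMP1, a fibulin of the matrix, were at 0.48 and FST, the activin binder follistatin, at 0.55. FST passed the filter only through its knockout values, since its control mean was -0.10. EFEMP1 shared with APLN the higher values of knockout libraries 3 and 4 (5.37 and 5.32, against 3.75 and 3.87 in libraries 1 and 2). SRGN shared with KITLG the higher values of libraries 1 and 2 (4.27 and 4.11, against 3.58 and 3.27). The measure picks genes with a like pattern over these same libraries, so such sharing follows from the choice and nothing is read from it.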

How the data were processed

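RNA was extracted with TRIzol and sequenced from stranded total-RNA libraries, per the labels' protocols. The authors deposited 1 table of log2 values per gene symbol and library. Per the submitters' processing notes, bcl2fastq, Partek 7.0 and GRCh38 were used; the aligner, the counting program, the annotation, the unit before the logarithm and the rule for blank cells are not given in the sources used here. Base 2 was inferred from the range. Every library had the same quantiles, so quantile normalization had been applied to these deposited values, which hides any change in total RNA. Without counts, depth and counting error are unknown, and the number of libraries limits the precision. Blank cells were treated as missing.

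Knockout minus control was estimated by limma 3.58.1 (R 4.3.3; lmFit, eBayes) on 9016 genes with 8 values and a mean of at least 1, with Benjamini-Hochberg adjustment over all of them. The fit was tested on simulated data with independent values in each library. That simulation left out the close knockout pairs, so it does not show how the fit behaves with them. Each SE given is that of the fit over all libraries, which treats the libraries of a close pair as independent. For the ligand genes the SE is, like the difference, only a description. The genes followed, the lists and the alternatives were chosen with earlier results of these data known. Genes were named from each list as the up to 3 largest rises and 3 largest falls among called genes with non-overlapping groups, besides NELL1, the 10 ligands, their receptors and the nearest profiles, of which 1 is not reported here. Groups and replicate numbers come from the titles. Deviations of same-numbered libraries from their group means correlated across genes at 0.20 to 0.29 in the 4 pairs. Only same-numbered pairs were correlated, and the close knockout pairs carry different numbers, so these values cannot show a pairing by number. By the SD of the difference across genes, control libraries 1, 2 and 4 were closest to knockout library 2 (0.364, 0.360 and 0.355). Control library 3 was closest to knockout library 3 (0.360). A fit that blocks on the number was run only as an alternative to the main one. Alternatives were no filter, a minimum mean of 3, centring on the median, a pseudocount of 1, a variance trend with robust estimation, an adjusted p under 0.01, the replicate block, averaged knockout pairs, a term for replicates 1-2 against 3-4, each replicate set alone and leaving out each library.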

Additional observations from a re-analysis of the deposited data

Results flagged for a closer look

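In groups of 4 libraries, 3 values among the 52 groups examined lay far from the other 3 of their group, none of them in the 10 ligand genes; chance gives about 1 in 20. TIE1 was 4.57 in knockout library 1, below the other knockout libraries. FLT1 was 1.82 in control library 4, above the other controls. FGFR1 was 2.96 in control library 3, below the other controls.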

How the results depend on the processing

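The differences of APLN, ANGPT2, KITLG and VEGFC kept their direction under every alternative in which the gene was tested, and their calls too, except ANGPT2 with averaged pairs and at an adjusted p under 0.01. Every alternative reuses the libraries whose differences were known when these genes were chosen, so this supports nothing about them. With the replicate block the calls of the 9 ligand genes were the same. In the 5 pathway lists it ended the call of PDGFRA, added those of COL18A1, SERPINF1, SULF2 and ARNT and changed no other call; in the marker lists it ended those of VIM and EGFL7. Counts of calls moved by over 1.5 times as follows, over all tested genes (1183), ligands (4), receptors (2), other secreted factors (4), inhibitors (1), processing genes (2) and hypoxia genes (1). A mean of at least 3 left 729 of 4684 genes and 0 of the 3 ligands tested (1 at an unadjusted limma p under 0.05). No filter gave 1 receptor, 2 inhibitors, 4 processing and 2 hypoxia genes. An adjusted p under 0.01 gave 272 genes, 1 receptor, 2 secreted factors, 0 inhibitors, 1 processing and 0 hypoxia genes (4 inhibitors and 6 hypoxia genes at an unadjusted limma p under 0.05). The replicate block gave 1 receptor, 3 inhibitors and 2 hypoxia genes. Averaged knockout pairs gave 108 genes (44 higher and 64 lower, against 633 and 550), 1 processing gene and, by limma, 0 receptors, 0 secreted factors, 0 inhibitors and 0 hypoxia genes (2, 4, 3 and 2 at an unadjusted p under 0.05). A model term for replicates 1-2 against 3-4 gave 2274 genes, 3 inhibitors and 3 hypoxia genes. Replicates 1 and 2 alone gave 5380 genes, 8 ligands, 6 receptors, 8 secreted factors, 7 inhibitors, 8 processing and 12 hypoxia genes. Replicates 3 and 4 alone gave 2987 genes, 5 inhibitors, 6 processing and 5 hypoxia genes. Leaving out 1 library gave 391 to 1353 genes (444, 431 and 391 without control library 1, 2 or 4, and 716 without knockout library 3), 4 to 5 ligands, 1 to 2 receptors, 2 to 4 secreted factors, 0 to 1 inhibitors (2 to 5 at an unadjusted limma p under 0.05 where 0), 1 to 3 processing and 0 to 6 hypoxia genes. Fewer genes were tested with the higher mean and fewer libraries used with averaged or left-out ones; otherwise the cause was not tested.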

Other observations

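Several pathway genes too low for the main test stood apart between the groups. Of 30 listed genes with a value in every library and a mean under 1, 10 had non-overlapping groups, 7 higher and 3 lower in the knockout libraries (33.3%), against 15.8% of all 4927 such low genes. Without a filter on the mean 5 of the 30 passed the threshold, against 8.24% of the low genes. These genes were picked after their values were seen, and nothing particular to the lists is read from the counts. ADAMTS1, a secreted protease that binds VEGF, was -0.88, -0.85, -0.41 and -0.82 in the controls, against 1.45, 1.52, 1.20 and 0.96 in the knockouts (limma adjusted p = 0.00327 without a filter). CCBE1, a cofactor of the proteolytic activation of VEGFC, was -3.21, -2.57, -1.37 and -1.86 in the controls, against 0.70, 0.55, -0.34 and -0.36 in the knockouts (limma adjusted p = 0.0202), the opposite direction to VEGFC itself. FGF1, acidic fibroblast growth factor, was -1.56, -1.43, -0.79 and -0.82 in the controls, against 1.68, 1.62, 0.14 and 0.23 in the knockouts (limma adjusted p = 0.0264), with the higher pair in libraries 1 and 2, as for FGF2. SULF1, a heparan sulfate editing enzyme, was -2.63 to -1.20 in the controls and -3.65 to -2.95 in the knockouts, and ANKRD37, a gene induced by low oxygen, was 0.95 to 1.45 and 0.30 to 0.89 (limma adjusted p = 0.0416 and 0.0412). ANGPTL2, a secreted relative of the angiopoietins, was -2.53 to -2.16 in the controls and -8.31 to -3.70 in the knockouts and did not pass the threshold (limma adjusted p = 0.0675). At such low levels the values vary widely between libraries, and without counts no detection limit can be set.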
